A study of Mus musculus with 34 samples.

Results

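T cells taken from doxorubicin-treated mouse mammary tumours after a course of control IgG were compared with T cells taken 48 h after the last doxorubicin dose. Each side is 1 single-cell RNA library. A cell was kept as a T cell if it had at least 500 UMIs (counted molecules), at least 200 genes, under 20% mitochondrial UMIs, at least 2 UMIs of Cd3d, Cd3e and Cd3g together, and fewer than 2 UMIs each of Krt18 and Lyz2. This gave 2799 T cells in the IgG arm and 3945 at 48 h, together 6744 of the 46386 cell barcodes in the single-cell files of the series. A further library from untreated tumours, with 2612 T cells kept by the same rule, is set beside them. The comparison asks what had returned and what went on differing days after doxorubicin without checkpoint blockade.

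All the tumours were MMTV-Wnt1 mammary tumours, in which the MMTV promoter drives the Wnt1 oncogene in mammary epithelium, transplanted into C57BL6j mice. In the IgG arm, mice had 5 consecutive doses of 4 mg/kg doxorubicin and then, starting 48 h later, 3 doses of 400 ug IgG spaced 72 h apart. Their tumours were collected 24 h after the last antibody dose, which by this schedule is 216 h, or 9 days, after the last doxorubicin dose. Mice of the 48 h group had the same doxorubicin and no antibody, and untreated mice had neither. Time since doxorubicin and IgG therefore differ together between the IgG arm and 48 h and cannot be told apart. Cells positive for CD4 or CD8 had been extracted magnetically before capture. Neither sex, age nor how many mice a library came from is stated in the sources used here.

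Doxorubicin blocks topoisomerase II and breaks DNA, which activates p53 and stops dividing cells. CD8 T cells kill tumour cells by releasing perforin and granzymes and by secreting interferon-gamma, while CD4 T cells include helper cells and Foxp3-positive regulatory T cells that restrain killing. Repeated antigen contact leads T cells to express inhibitory receptors such as Pdcd1 (PD1), Ctla4, Lag3 and Havcr2 (TIM-3).

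The T cells held 30746498 UMIs in the IgG arm, 31182459 at 48 h and 29659424 in untreated tumours, and the median T cell had 8856 UMIs in the IgG arm, 5979 at 48 h and 8411 in untreated tumours. Of all cells within the UMI, gene and mitochondrial limits, 77.4% were kept as T cells in the IgG arm, 51.8% at 48 h and 68.1% in untreated tumours. At least 2 UMIs of Krt18, a keratin of the tumour epithelium, were seen in 9.21% of those cells in the IgG arm, 29.2% at 48 h and 15.3% in untreated tumours. The T cell label was checked with the adhesion receptor Cd2, which the rule did not use. It was at 3.46 in the IgG arm, 2.81 at 48 h and 3.97 untreated in T cells, in UMIs per 10000. In cells with at least 2 UMIs of Krt18 or Lyz2 and no Cd3 UMI, called non-T cells below, Cd2 was at 0.0147 in the IgG arm, 0.0220 at 48 h and 0.0141 untreated. There were 450 such cells in the IgG arm, 2083 at 48 h and 700 in untreated tumours. Their make-up differed between the libraries. In them epithelial markers summed to 142 in the IgG arm, 224 at 48 h and 132 untreated. Dendritic cell markers summed to 63.8 in the IgG arm, 23.9 at 48 h and 60.2 untreated. The part of this make-up in the non-T levels below was not tested. Exactly 2 Cd3 UMIs were held by 23 T cells in the IgG arm, 55 at 48 h and 20 untreated, and exactly 1 by 39, 91 and 40 cells of those libraries that were otherwise within the rule.

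RNA of other cell types in the T cells differed between the libraries. All 14 epithelial markers were detected in each library, and their summed level was 0.789 in the IgG arm, 2.29 at 48 h and 0.851 untreated. The 14 macrophage and monocyte markers summed to 1.38 in the IgG arm, 2.04 at 48 h and 0.939 untreated. The 10 neutrophil markers summed to 0.511 in the IgG arm, 1.83 at 48 h and 0.442 untreated, with Retnlg at 0 in the IgG arm. The 48 h library thus carried the most RNA of each of these types. The 10 fibroblast and endothelial markers summed to 0.258 in the IgG arm, 2.27 at 48 h and 1.92 untreated, with Pdgfra and Cdh5 at 0 in the IgG arm. The 10 B and plasma cell markers summed to 0.748 in the IgG arm, 0.613 at 48 h and 0.990 untreated. The 10 dendritic cell markers summed to 1.15 in the IgG arm, 1.56 at 48 h and 0.996 untreated, with Clec9a and Cd209a at 0 in all 3 libraries. The remaining lists were low. The 5 red blood cell markers summed to 0.00650 in the IgG arm, 0.00128 at 48 h and 0.230 untreated, and the 8 mast cell and basophil markers to 0.151 in the IgG arm, 0.200 at 48 h and 0.0388 untreated. The part of this RNA in the results below was not tested, except where a value is given beside the result.

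Most of the T cell transcriptome was close between the IgG arm and 48 h. A level is a gene's share of all UMIs of the T cells of a library, in UMIs per 10000, and a gene was counted if its mean level over the 3 libraries was at least 0.1. Of 6802 genes counted, 6482 (95.3%) lay within 1.5-fold. A gene is said to have risen or fallen, or to be called higher or lower, where its ratio was at least 2 or at most 0.5. By this rule 26 genes (0.382%) were higher in the IgG arm than at 48 h and 47 (0.691%) were lower, together 1.07%. Scaled so that the median counted gene had a ratio of 1, the split was 37 higher and 40 lower. With cells that held any UMI of Krt8, Krt18, Lyz2, S100a8, S100a9, Col1a1 or Col3a1 left out, an exclusion chosen after seeing the data, it was 48 higher and 40 lower. For 48 h over untreated, 87 genes (1.28%) were higher and 33 (0.485%) lower. For the IgG arm over untreated, 77 genes (1.13%) were higher and 29 (0.426%) lower. Each pair of these comparisons shares a library. The median log2 ratio over all counted genes was -0.09 for the IgG arm over 48 h, 0.10 for 48 h over untreated and 0.00 for the IgG arm over untreated, and list medians stand beside these. Of the genes lower than at 48 h, 11 belong to the lists of other cell types: Krt18, Krt8 and Lcn2 of epithelium, S100a8, S100a9 and Cxcl2 of neutrophils, Apoe of macrophages, and Col1a1, Col1a2, Col3a1 and Sparc of fibroblasts. Of the genes that were higher, Spp1 of macrophages and Igkc of B cells do. With 1 library a group there is no test and no p-value. Intervals in parentheses are exact at 95% and cover counting error only, not differences between mice.

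Genes of T cell killing stood among those higher in the IgG arm. Prf1, the pore-forming protein perforin, was at 2.53 UMIs per 10000 in the IgG arm, 0.472 at 48 h and 0.309 in untreated tumours. Its ratio to 48 h of 5.36 (5.07 to 5.67) was the largest of all 6802 counted genes, and the IgG arm stood far above both other libraries. Ifng, the cytokine interferon-gamma, was at 4.41 in the IgG arm, 1.43 at 48 h and 1.59 untreated, with a ratio to 48 h of 3.09 (2.99 to 3.20). Its levels at 48 h and untreated were close. Prf1 and Ifng were the only counted genes at 3-fold or more above 48 h, and both were also called higher than in untreated T cells, by 8.20-fold for Prf1 and 2.78-fold for Ifng.

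Granzymes A and B, proteases that enter target cells with the help of perforin, had another course. Gzma was at 12.6 UMIs per 10000 in the IgG arm, 4.71 at 48 h and 16.8 in untreated tumours. Gzmb was at 4.93 in the IgG arm, 1.92 at 48 h and 6.96 untreated. Both were lowest at 48 h and highest in untreated tumours, with the IgG arm between, 2.68-fold above 48 h for Gzma and 2.56-fold for Gzmb. Of the 20 cytotoxic effector genes 15 were counted, of which these 4 rose over 48 h and none fell, with a list median log2 ratio of 0.29. The others lay within 2-fold. Nkg7, a granule membrane protein, was at 19.5 in the IgG arm, 16.0 at 48 h and 16.9 untreated. Fasl, the death ligand, was at 0.622 in the IgG arm, 0.469 at 48 h and 0.556 untreated, and the cytokine Tnf at 0.274 in the IgG arm, 0.270 at 48 h and 0.205 untreated. Gzmk, a granzyme of less differentiated effector cells, was at 0.702 in the IgG arm, 0.437 at 48 h and 0.752 untreated, so it too was lowest at 48 h.

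The higher levels went with more cells that held a UMI of the gene. Every cell was thinned to 2000 UMIs for such shares, which left out 38 T cells in the IgG arm, 81 at 48 h and 34 untreated. Prf1 was seen in 16.3% in the IgG arm, 5.46% at 48 h and 4.65% untreated, and a positive cell held 2.41 in the IgG arm, 1.26 at 48 h and 1.16 untreated UMIs of it on average. Ifng was seen in 37.7% of T cells in the IgG arm (35.9 to 39.5), 16.6% at 48 h (15.5 to 17.9) and 17.5% untreated (16.0 to 19.0), against unthinned shares of 61.7% in the IgG arm, 32.7% at 48 h and 39.1% untreated. The IgG arm was thus apart in share as well as in level. Gzma was seen in 17.8% in the IgG arm, 9.06% at 48 h and 15.3% untreated, and Gzmb in 31.6% in the IgG arm, 17.003% at 48 h and 35.6% untreated. Unthinned shares were 35.0% in the IgG arm, 16.1% at 48 h and 15.7% untreated for Prf1, 23.8% in the IgG arm, 12.2% at 48 h and 21.9% untreated for Gzma and 47.6% in the IgG arm, 28.4% at 48 h and 48.4% untreated for Gzmb. The non-T cells had a median of 14009 UMIs in the IgG arm, 9750 at 48 h and 18871 untreated, and no thinned share of these 4 genes in them was above 0.945%.

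**Figure D1:**
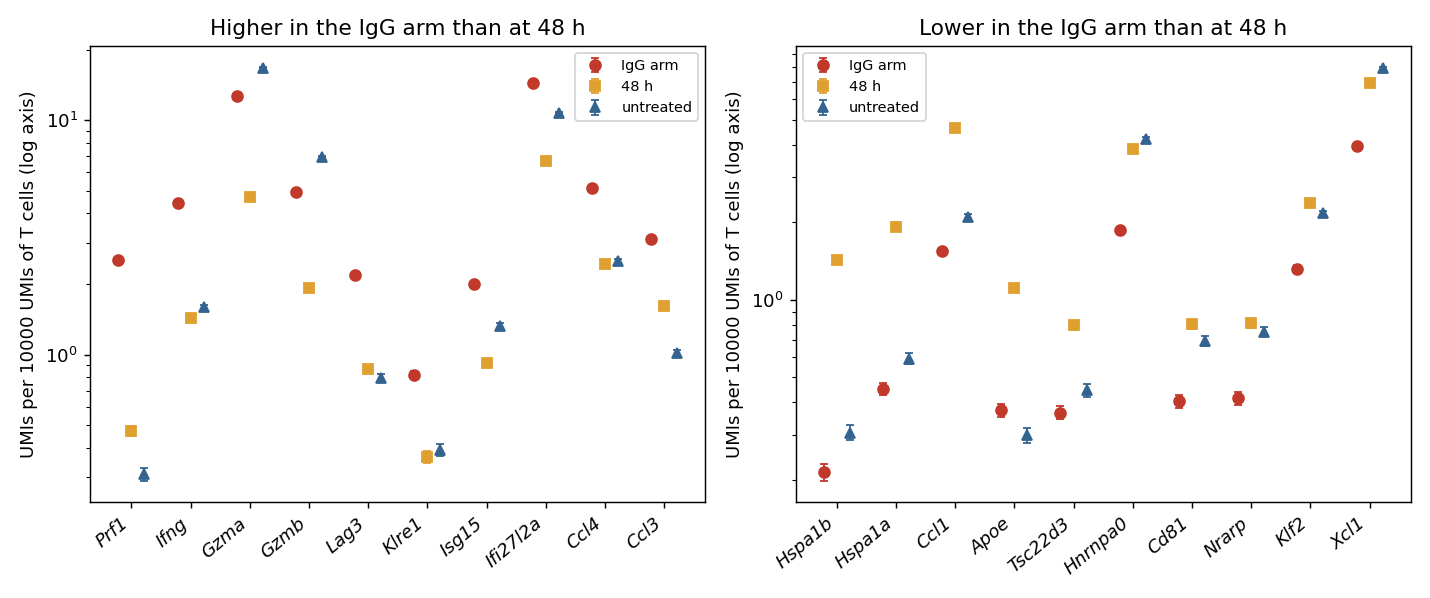
Levels in UMIs per 10000 UMIs of T cells, on a log axis, of genes higher (left) and lower (right) in the IgG arm than at 48 h. Points are the IgG arm, 48 h and untreated, 1 library each, with exact Poisson 95% intervals. Prf1, Ifng and Lag3 are highest in the IgG arm, Gzma and Gzmb are lowest at 48 h, and the heat shock genes Hspa1b and Hspa1a are highest at 48 h.

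Inhibitory receptors differed unevenly. Lag3, which binds MHC class II, was at 2.19 UMIs per 10000 in the IgG arm, 0.871 at 48 h and 0.796 in untreated tumours. It was close between 48 h and untreated and higher in the IgG arm, with a ratio to 48 h of 2.51 (2.40 to 2.63). Its thinned share was 28.8% in the IgG arm, 14.7% at 48 h and 12.7% untreated (51.4% in the IgG arm, 31.0% at 48 h and 28.8% untreated unthinned, and at most 3.31% thinned in non-T cells). Klrg1, a lectin-like receptor of effector T cells, was at 0.154 in the IgG arm, 0.0600 at 48 h and 0.275 untreated, 2.56-fold above 48 h but below untreated. Of 16 counted members of 19, these 2 rose over 48 h and none fell, and the list median log2 ratio was 0.10. Pdcd1 and Ctla4, the receptors that the blocking antibodies of this series target, did not pass 2-fold over 48 h. Pdcd1 was at 1.35 in the IgG arm, 1.43 at 48 h and 0.993 untreated, and Ctla4 at 2.31 in the IgG arm, 1.56 at 48 h and 2.51 untreated. Havcr2, which marks terminally exhausted cells, was at 0.409 in the IgG arm, 0.249 at 48 h and 0.128 untreated, a stepwise order that left the IgG arm 3.18-fold above untreated. Cd160, which binds the TNF family receptor HVEM, was lowest in the IgG arm, at 0.706 in the IgG arm, 1.13 at 48 h and 1.06 untreated.

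Regulators linked to exhaustion had list medians above 0 against untreated in both libraries after doxorubicin. Tox, a factor of exhausted T cells, was at 1.08 UMIs per 10000 in the IgG arm, 1.49 at 48 h and 0.769 in untreated tumours. The 15 counted members of that list had a median log2 ratio of -0.05 for the IgG arm over 48 h with none past 2-fold. Against untreated the median was 0.53 in the IgG arm and 0.53 at 48 h, and Nr4a2, a nuclear receptor induced by T cell receptor signals, was the 1 member past 2-fold, in the IgG arm. Within the gates defined below, the list median against untreated differed. It was 0.69 in the IgG arm and 0.65 at 48 h in CD8-gated cells. In CD4-gated cells it was 0.10 in the IgG arm and 0.59 at 48 h. Of the costimulatory receptors, Tnfrsf9 (4-1BB) was at 3.44 in the IgG arm, 1.96 at 48 h and 2.24 untreated. Cd27, a receptor of the TNF family, was at 1.499 in the IgG arm, 0.820 at 48 h and 1.07 untreated. Both were highest in the IgG arm and short of 2-fold over 48 h. Tnfsf4, the OX40 ligand, was at 0.1002 in the IgG arm, 0.219 at 48 h and 0.0327 untreated and was the 1 of 13 counted costimulatory genes to pass 2-fold, lower than at 48 h. It did so in 12 of 15 alternatives.

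Inducible heat shock genes were among those furthest below 48 h. Hspa1b and Hspa1a are near-identical neighbouring genes for HSP70 chaperones, which heat shock factor switches on. Counting may have split reads between the copies, so each alone is uncertain and their sum is given too. Their RefSeq promoters (GRCm38.p6, 250 bases before to 50 after the start, minus strand) are chr17:34959189-34959488 for Hspa1b and chr17:34972107-34972406 for Hspa1a. They are shown because both genes fell together, and the windows are identical at 296 of 300 bases. Capitals mark the match to GAANNTTC, a short form of the heat shock element searched on both strands, which begins at base -104 from the start in both and which 7.86% of 32851 such promoters hold.
Hspa1b: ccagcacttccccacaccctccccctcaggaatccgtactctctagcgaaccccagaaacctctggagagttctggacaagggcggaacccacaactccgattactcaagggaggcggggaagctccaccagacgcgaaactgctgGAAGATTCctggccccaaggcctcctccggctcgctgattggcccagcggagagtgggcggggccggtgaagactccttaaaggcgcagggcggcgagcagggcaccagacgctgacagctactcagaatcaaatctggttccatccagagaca
Hspa1a: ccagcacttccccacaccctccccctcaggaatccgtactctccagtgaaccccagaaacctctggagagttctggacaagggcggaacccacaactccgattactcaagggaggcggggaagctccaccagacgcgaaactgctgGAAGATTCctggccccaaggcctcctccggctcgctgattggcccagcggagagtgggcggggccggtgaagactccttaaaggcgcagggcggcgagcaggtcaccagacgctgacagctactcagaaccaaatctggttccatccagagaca
The match describes the letters and shows no binding.

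Hspa1b was at 0.214 UMIs per 10000 in the IgG arm, 1.43 at 48 h and 0.305 in untreated tumours, with a ratio to 48 h of 0.150 (0.138 to 0.163). Hspa1a was at 0.452 in the IgG arm, 1.92 at 48 h and 0.591 untreated, with a ratio of 0.235 (0.222 to 0.2497). Their sum was 0.666 in the IgG arm, 3.35 at 48 h and 0.897 untreated, so the 48 h library stood apart and the IgG arm lay slightly under untreated. The sum was 0.565 in the IgG arm, 3.28 at 48 h and 0.841 untreated in CD8-gated cells and 1.36 in the IgG arm, 3.83 at 48 h and 0.759 untreated in CD4-gated cells, the gates being defined below. In non-T cells it was 2.50 in the IgG arm, 7.93 at 48 h and 2.19 untreated, so the 48 h library was highest in every kind of cell examined. Thinned shares of cells with Hspa1b were 3.01% in the IgG arm, 15.4% at 48 h and 3.76% untreated for T cells (9.18% in the IgG arm, 28.7% at 48 h and 9.42% untreated unthinned) and 15% in the IgG arm, 42.4% at 48 h and 14.5% untreated for non-T cells, so the T cell share lay below the background share and is not read as expression. The T cell level of the pair, as a percentage of the level in non-T cells, was 26.6% in the IgG arm, 42.2% at 48 h and 40.9% untreated. The same percentage for the tumour keratin Krt8 was 0.585% in the IgG arm, 1.76% at 48 h and 0.685% untreated. The rules for T and non-T cells use Krt18, a keratin of the same epithelium, so they act on the Krt8 percentage directly. It therefore does not show which cells the RNA of the pair came from. The small heat shock gene Hspb1 was at 0.0576 in the IgG arm, 0.324 at 48 h and 0.0775 untreated in T cells. Its percentage was 0.794% in the IgG arm, 1.64% at 48 h and 0.990% untreated, close to that of Krt8. With the same cells of tumour, myeloid or fibroblast RNA left out, the log2 ratio of Hspa1b to 48 h was -2.83, against -2.74 with them. Of 20 counted heat shock genes these 3 fell and none rose, and the list median log2 ratio was -0.18.

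Glucocorticoid-induced and immediate early genes also had list medians below 0. Tsc22d3 (GILZ), a mediator of glucocorticoid action, was at 0.365 UMIs per 10000 in the IgG arm, 0.795 at 48 h and 0.445 in untreated tumours, and its ratio to 48 h was 0.459 (0.427 to 0.493). Per1, a clock gene that glucocorticoids induce, was at 0.365 in the IgG arm, 0.653 at 48 h and 0.418 untreated. Txnip, which binds thioredoxin, was at 0.592 in the IgG arm, 1.17 at 48 h and 0.737 untreated. The 48 h library was highest for all of these, and Tsc22d3 was the only 1 of 13 counted glucocorticoid-induced genes to pass 2-fold. The list median log2 ratio was -0.57 for the IgG arm over 48 h. Against untreated it was -0.01 in the IgG arm and 0.58 at 48 h. Immediate early genes, which answer stimulation within minutes and also rise during tissue digestion, had a median of -0.40 for the IgG arm over 48 h, with none of 31 counted past 2-fold. The AP-1 subunit Fos was at 1.28 in the IgG arm, 2.24 at 48 h and 1.15 untreated in T cells. In non-T cells Fos was at 15.4 in the IgG arm, 56.7 at 48 h and 13.0 untreated, highest at 48 h there too. The T cell level of Fos was 8.34% of the non-T level in the IgG arm, 3.96% at 48 h and 8.83% untreated. Its log2 ratio to 48 h was -0.81, and -1.45 when cells with Krt18 or Lyz2 were kept.

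Genes that p53 activates were slightly lower in the IgG arm than at 48 h. Of 30 targets 22 were counted, and 21 of these lay below their 48 h level, beside 65.2% of all counted genes, with a list median log2 ratio of -0.45. Bbc3 (PUMA), which promotes apoptosis, was the only one to pass 2-fold, at 0.124 UMIs per 10000 in the IgG arm, 0.298 at 48 h and 0.240 in untreated tumours. Cdkn1a (p21), which arrests the cell cycle, was at 0.871 in the IgG arm, 1.30 at 48 h and 0.718 untreated. In non-T cells Cdkn1a was at 3.61 in the IgG arm, 10.9 at 48 h and 0.964 untreated, so it was highest at 48 h in both. Ccng1, a cyclin that p53 induces, was at 0.376 in the IgG arm, 0.569 at 48 h and 0.317 untreated. Mdm2, the ligase that degrades p53, was at 0.380 in the IgG arm, 0.485 at 48 h and 0.388 untreated, and Bax, the apoptosis effector, at 1.67 in the IgG arm, 2.09 at 48 h and 1.55 untreated. All of these were highest at 48 h, by less than 2-fold over the IgG arm. Against untreated T cells, Zmat3, Sesn2 and Plk2 rose at 48 h and none of the 22 passed 2-fold upward in the IgG arm. The list median against untreated was 0.02 in the IgG arm and 0.35 at 48 h.

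**Figure D2:**
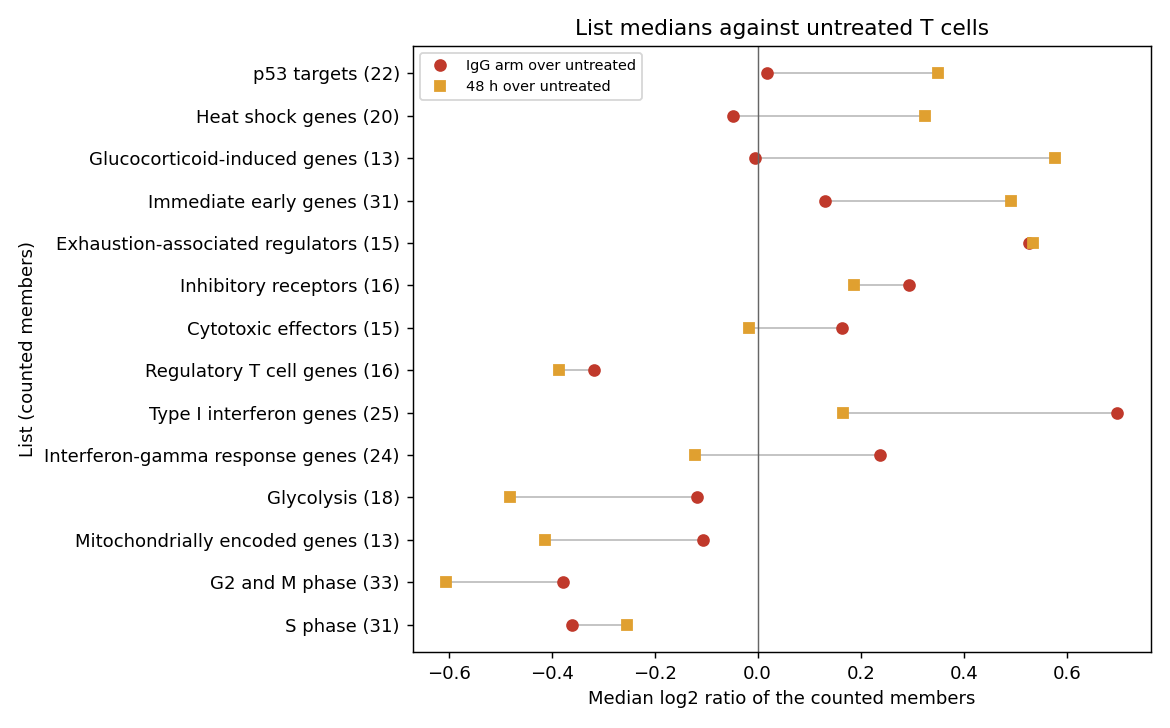
Median log2 ratio to untreated T cells of the counted members of 14 gene lists, with circles for the IgG arm and squares for 48 h. Both points of a list share the untreated library. The medians of the p53, heat shock and glucocorticoid lists are close to 0 in the IgG arm, those of the exhaustion-associated regulators coincide, and that of the type I interferon list is furthest above 0 in the IgG arm.

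Interferon-stimulated genes had a list median above 0 for the IgG arm over 48 h. Isg15, a ubiquitin-like protein that interferon induces, is shown with its RefSeq promoter (GRCm38.p6, chr4:156200769-156201068, minus strand) as the leading gene of the list. Capitals mark 3 matches, which overlap each other, to GAAA followed after any 2 bases by GAAA. This is a short form of the interferon-stimulated response element, searched on both strands and held by 3.44% of such promoters.
Isg15: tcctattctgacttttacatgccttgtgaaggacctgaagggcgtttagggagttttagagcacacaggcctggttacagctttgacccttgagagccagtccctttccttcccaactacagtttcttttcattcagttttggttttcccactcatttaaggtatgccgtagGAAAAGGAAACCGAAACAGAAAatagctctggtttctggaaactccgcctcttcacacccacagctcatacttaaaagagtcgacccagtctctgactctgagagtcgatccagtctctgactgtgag

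Isg15 was at 2.01 UMIs per 10000 in the IgG arm, 0.925 at 48 h and 1.33 in untreated tumours, with a ratio to 48 h of 2.17 (2.07 to 2.27), past 2-fold in 14 of 15 alternatives. Ifi27l2a, a small interferon-induced protein, was at 14.4 in the IgG arm, 6.66 at 48 h and 10.7 untreated, with a ratio of 2.16 (2.12 to 2.19). Both were lowest at 48 h and highest in the IgG arm. They were the only 2 of 25 counted type I interferon genes, of 39 listed, to rise over 48 h, none fell, and the list median log2 ratio was 0.45. Against untreated the list median was 0.70 in the IgG arm, with all 25 above 0, and 0.17 at 48 h, with 15 above 0. Of all counted genes, 61.0% were above 0 for 48 h over untreated, with a median of 0.10, so the list at 48 h lay near this background. For the IgG arm over untreated 50.2% of all counted genes were above 0. The summed level of the listed genes was 30.2 in the IgG arm, 17.6 at 48 h and 21.2 untreated. Against untreated, Ifit1, Ifit3 and Rsad2 rose in the IgG arm and Rsad2 at 48 h. Irf7, the factor that amplifies interferon production, was at 0.601 in the IgG arm, 0.344 at 48 h and 0.347 untreated. Zbp1, a nucleic acid sensor, was at 1.09 in the IgG arm, 0.603 at 48 h and 0.818 untreated. In non-T cells Isg15 was at 3.48 in the IgG arm, 1.17 at 48 h and 1.004 untreated, so the IgG arm was highest there too. Thinned shares with an Isg15 UMI were 27.5% in the IgG arm, 13.9% at 48 h and 20.02% untreated for T cells and 36.7% in the IgG arm, 15.5% at 48 h and 11.5% untreated for non-T cells. The T cell share exceeded that of non-T cells in untreated tumours only, so the others are not read as expression. Unthinned, the T cell shares were 56.3% in the IgG arm, 29.9% at 48 h and 44.2% untreated. The T cell level of Isg15 as a percentage of the non-T level was 57.6% in the IgG arm, 79.0% at 48 h and 132% untreated. Of 24 counted interferon-gamma response genes, 2 GTPases rose over 48 h and none fell, with a list median of 0.21. Gbp6 was at 0.496 in the IgG arm, 0.237 at 48 h and 0.221 untreated, and Iigp1 at 0.317 in the IgG arm, 0.137 at 48 h and 0.154 untreated. None of 22 counted MHC class I presentation genes passed 2-fold, and their median was 0.20. H2-T23, a ligand of CD94-NKG2 receptors, was at 3.55 in the IgG arm, 2.11 at 48 h and 2.78 untreated.

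Chemokines and cytokine ligands went both ways. Ccl4, an inflammatory chemokine, was at 5.14 UMIs per 10000 in the IgG arm, 2.43 at 48 h and 2.50 in untreated tumours, with a ratio to 48 h of 2.11 (2.06 to 2.17). It stayed past 2-fold in 12 of 15 alternatives, with a lowest log2 ratio of 0.88. The related Ccl3 was at 3.11 in the IgG arm, 1.61 at 48 h and 1.01 untreated, just under 2-fold above 48 h. Ccl1, the ligand of Ccr8, was at 1.54 in the IgG arm, 4.64 at 48 h and 2.10 untreated, with a ratio of 0.332 (0.321 to 0.343). The log2 ratio of Ccl1 was -1.59, but -0.84 when each cell was thinned and -0.94 when each cell had equal weight, both short of 2-fold. Over all T cells the 48 h library was highest for Ccl1 and the IgG arm for Ccl3 and Ccl4. In the gates defined below, Ccl1 fell relative to 48 h in CD4-gated cells and was not called in CD8-gated cells. After thinning, a Ccl1 UMI was seen in 26.2% of CD4-gated and 5.71% of CD8-gated cells of the IgG arm. The part of the differing gate shares in the Ccl1 ratio was not tested. Lta, lymphotoxin alpha, was at 0.0677 in the IgG arm, 0.243 at 48 h and 0.156 untreated, and fell relative to 48 h. Xcl1, which attracts cross-presenting dendritic cells, was at 3.95 in the IgG arm, 6.91 at 48 h and 7.92 untreated. Tnfsf11 (RANKL) was at 0.620 in the IgG arm, 0.944 at 48 h and 0.469 untreated. Of 13 counted ligands of 20, Ccl4 rose over 48 h and Ccl1, Lta and Cxcl2 fell. Cxcl2, a neutrophil attractant, was at 0.160 in the IgG arm, 0.613 at 48 h and 0.0840 untreated in T cells. In non-T cells Cxcl2 was at 3.15 in the IgG arm, 5.10 at 48 h and 2.39 untreated, again highest at 48 h.

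Other genes below 48 h had varied roles. Hnrnpa0, an RNA-binding protein, was at 1.86 UMIs per 10000 in the IgG arm, 3.84 at 48 h and 4.19 in untreated tumours, with a ratio to 48 h of 0.484 (0.469 to 0.4997), past 2-fold in 13 of 15 alternatives. In non-T cells it was at 1.87 in the IgG arm, 3.06 at 48 h and 3.44 untreated, lowest in the IgG arm there too. Apoe, a lipid carrier made by macrophages, was at 0.372 in the IgG arm, 1.11 at 48 h and 0.298 untreated in T cells and at 31.3 in the IgG arm, 30.8 at 48 h and 29.98 untreated in non-T cells. Its T cell level was thus at most 3.59% of the non-T level, in the 48 h library. Its log2 ratio to 48 h was -1.57, but -0.53 when cells with Krt18 or Lyz2 were kept. Klf2, which keeps naive and memory T cells circulating, was at 1.32 in the IgG arm, 2.37 at 48 h and 2.16 untreated. Nrarp, a Notch target, was at 0.414 in the IgG arm, 0.811 at 48 h and 0.753 untreated, and the tetraspanin Cd81 at 0.404 in the IgG arm, 0.803 at 48 h and 0.691 untreated. These 3 were lowest in the IgG arm and short of 2-fold below 48 h. Receptors and adaptors shared with NK cells split, with 2 of 12 counted higher than at 48 h and 4 lower. The lectin-like receptor Klre1 was at 0.818 in the IgG arm, 0.365 at 48 h and 0.392 untreated, and its partner in mice, Klri2, at 0.521 in the IgG arm, 0.175 at 48 h and 0.0381 untreated. Both rose, though Klre1 had a log2 ratio of 0.92 without cells of 3 receptor segments, an exclusion chosen after seeing the data. The adaptor Fcer1g was at 0.130 in the IgG arm, 0.463 at 48 h and 0.737 untreated, and the adaptor Tyrobp at 0.0595 in the IgG arm, 0.151 at 48 h and 0.164 untreated. They fell, as did the Ly49 receptors Klra7, at 0.102 in the IgG arm, 0.282 at 48 h and 0.504 untreated, and Klra1. Both adaptors were far higher in non-T cells, where Fcer1g was at 4.32 in the IgG arm, 2.97 at 48 h and 4.58 untreated. Tyrobp was there at 3.26 in the IgG arm, 2.46 at 48 h and 3.56 untreated. When cells with Krt18 or Lyz2 were kept, the log2 ratio was -0.57 for Fcer1g, against -1.84, and -0.13 for Tyrobp, against -1.34, so both calls were lost.

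The list medians of glycolysis and of G2 and M phase were lowest at 48 h. For glycolysis the median log2 ratio was 0.32 for the IgG arm over 48 h, and 1 of 18 counted genes passed 2-fold, the lactate exporter Slc16a3, at 0.184 UMIs per 10000 in the IgG arm, 0.0914 at 48 h and 0.284 in untreated tumours. This call held in 8 of 15 alternatives, with log2 ratios of 0.81 to 1.19. The glycolytic enzyme Eno1 was at 2.76 in the IgG arm, 1.48 at 48 h and 2.35 untreated. The enzyme Aldoa was at 4.82 in the IgG arm, 2.86 at 48 h and 5.07 untreated. Both lay below 2-fold, with 48 h lowest. In non-T cells Eno1 was at 4.49 in the IgG arm, 1.18 at 48 h and 3.60 untreated, lowest at 48 h there too. The 33 counted genes of G2 and M phase had a median of 0.23 for the IgG arm over 48 h, and none passed 2-fold. With cells holding RNA of other cell types left out, as above, the median was 0.80. In non-T cells the list summed to 29.0 in the IgG arm, 12.2 at 48 h and 29.0 untreated, lowest at 48 h as well. Against untreated the median was -0.38 in the IgG arm and -0.60 at 48 h, so both libraries after doxorubicin lay below untreated. Birc5 (survivin), needed in mitosis, was at 0.959 in the IgG arm, 0.732 at 48 h and 1.51 untreated, with a log2 ratio to 48 h of 0.39, or 0.96 with those cells left out. Dividing cells, with at least 2 UMIs of Mki67, Top2a, Cdk1, Birc5, Ccnb1 and Ccnb2 together, were 9.13% of thinned T cells in the IgG arm (8.08 to 10.3), 7.58% at 48 h (6.77 to 8.46) and 11.99% untreated (10.8 to 13.3). The intervals of the IgG arm and 48 h overlap, and unthinned shares were 21.5% in the IgG arm, 18.5% at 48 h and 24.6% untreated. S phase genes had a median of 0.00 over 48 h.

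Markers of RNA quality also differed. The 13 mitochondrially encoded genes had a median log2 ratio of 0.27 for the IgG arm over 48 h, and mt-Atp8, an ATP synthase subunit, was the 1 that rose, at 0.944 UMIs per 10000 in the IgG arm, 0.326 at 48 h and 0.411 in untreated tumours. The cell filter itself limits mitochondrial UMIs. The median T cell had 3.23% mitochondrial UMIs in the IgG arm, 2.73% at 48 h and 3.73% in untreated tumours. Gm42418, a locus that collects ribosomal RNA reads, was at 80.5 in the IgG arm, 39.8 at 48 h and 49.5 untreated. AY036118, another such locus, was at 7.19 in the IgG arm, 2.99 at 48 h and 1.77 untreated, and these were the 2 of 6 RNA quality markers that rose over 48 h, Gm42418 in 12 of 15 alternatives. The 25 ribosomal protein genes had a median of -0.13. The part of RNA quality in the other differences was not tested.

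The make-up of the T cells differed as well. Cells with a Cd8a or Cd8b1 UMI and no Cd4 UMI (the CD8 gate) were 71.6% of thinned T cells in the IgG arm (69.9 to 73.3), 58.6% at 48 h (57.0 to 60.2) and 49.6% untreated (47.7 to 51.6). Unthinned shares were 79.9% in the IgG arm, 66.8% at 48 h and 59.4% untreated. Cells with Cd4 and no Cd8a or Cd8b1 UMI (the CD4 gate) were 5.94% in the IgG arm, 12.5% at 48 h and 10.9% untreated after thinning, and 9.90% in the IgG arm, 17.8% at 48 h and 21.1% untreated without thinning. The IgG arm thus had the largest CD8 share and the smallest CD4 share of the 3 libraries. The magnetic selection for CD4 and CD8 comes before these shares and can set them. Cells with neither were 21.5% in the IgG arm, 27.4% at 48 h and 38.8% untreated after thinning, and 6.29% in the IgG arm, 10.7% at 48 h and 15.4% untreated without thinning, and include cells whose Cd4 or Cd8 RNA was not caught. Cells with Trdc, the gamma delta receptor's constant segment, were 0.652% in the IgG arm, 0.906% at 48 h and 0.659% untreated after thinning, and 1.25% in the IgG arm, 1.55% at 48 h and 1.23% untreated without thinning.

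**Figure D3:**
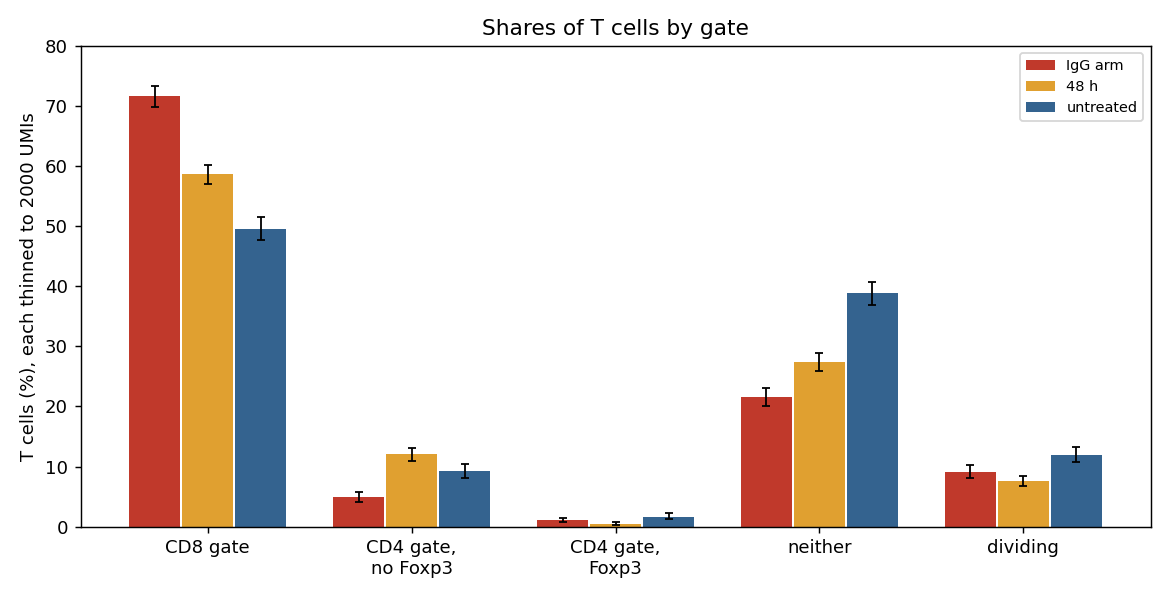
Shares of T cells, each thinned to 2000 UMIs, in the gates named below the bars, with exact 95% binomial intervals and bars for the IgG arm, 48 h and untreated, 1 library each. The CD8 share is 71.6% in the IgG arm, 58.6% at 48 h and 49.6% in untreated tumours.

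Within the CD8 gate Prf1, Ifng and Gzma differed by at least as much as in all T cells. Of 6638 genes counted there, 35 (0.527%) were higher in the IgG arm than at 48 h and 34 (0.512%) were lower, together 1.04%. Prf1 in this gate was at 2.85 UMIs per 10000 in the IgG arm, 0.519 at 48 h and 0.407 in untreated tumours, with a ratio to 48 h of 5.50 (5.18 to 5.85). Ifng was at 4.40 in the IgG arm, 1.14 at 48 h and 1.25 untreated, 3.85-fold above 48 h. Gzma was at 14.4 in the IgG arm, 4.67 at 48 h and 20.4 untreated, 3.09-fold above 48 h. For Gzma the untreated library was again highest. Lag3 was at 2.25 in the IgG arm, 0.787 at 48 h and 0.579 untreated, 2.86-fold above 48 h, and Havcr2, which passed 2-fold here, was at 0.420 in the IgG arm, 0.196 at 48 h and 0.103 untreated. Ccl3 also rose in this gate, at 3.26 in the IgG arm, 1.33 at 48 h and 0.960 untreated. Ctla4 did not pass 2-fold over 48 h, at 1.86 in the IgG arm, 1.05 at 48 h and 0.885 untreated, and nor did Pdcd1, at 1.35 in the IgG arm, 1.25 at 48 h and 0.860 untreated. When the gates were weighted to the make-up of the 48 h library, the log2 ratio of the IgG arm to 48 h over all T cells was 2.31 for Prf1, 1.62 for Ifng and 1.30 for Gzma.

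The CD4 gate rested on fewer cells and UMIs. It held 277 cells and 2561083 UMIs in the IgG arm, 704 cells and 4100664 at 48 h, and 550 cells and 4861679 untreated. Of 7108 genes counted there, 81 (1.14%) were higher in the IgG arm than at 48 h and 192 (2.70%) were lower, together 3.84%. Of 23 counted type I interferon genes 11 rose and none fell, with a list median log2 ratio of 0.96 beside -0.10 for all genes counted in the gate. Ifi27l2a in this gate was at 30.2 UMIs per 10000 in the IgG arm, 11.4 at 48 h and 21.6 in untreated tumours. Cxcl10, an interferon-induced ligand of Cxcr3, was at 1.60 in the IgG arm, 0.395 at 48 h and 0.389 untreated, with a ratio to 48 h of 4.05 (3.37 to 4.89). In the CD8 gate Cxcl10 was at 0.514 in the IgG arm, 0.577 at 48 h and 0.286 untreated, where the IgG arm was not the highest. Immediate early genes fell for 7 members in the CD4 gate, among them Fos, at 1.59 in the IgG arm, 4.03 at 48 h and 1.83 untreated. Gzma was lower than at 48 h here, at 0.765 in the IgG arm, 2.64 at 48 h and 3.48 untreated, and so was Ccl3, at 1.55 in the IgG arm, 3.48 at 48 h and 0.952 untreated. Both were higher than at 48 h in the CD8 gate. Of 15 cytotoxic effectors counted in the CD4 gate, 5 fell and Gzmb rose, with a list median log2 ratio of -0.66. Of 6 counted receptors and adaptors shared with NK cells, 5 fell, with a median of -1.64. The median CD4-gated cell had 7581 UMIs in the IgG arm and 4480 at 48 h, and the part of depth was not tested. Tumour, neutrophil and fibroblast RNA was also lower in this gate, where 5 of the epithelial, 3 of the neutrophil and 5 of the fibroblast and endothelial markers fell. Both of the 2 counted B cell markers, Igkc and Ighm, rose in it. Of 3 counted macrophage and monocyte markers, Spp1 rose while Lyz2 and Apoe fell. Of 2 counted dendritic cell markers, Cd74 rose and the other lay below its 48 h level. Ighm was at 1.03 in the IgG arm, 0.371 at 48 h and 0.815 untreated, Igkc at 0.531 in the IgG arm, 0.190 at 48 h and 0.0802 untreated and Spp1 at 1.13 in the IgG arm, 0.424 at 48 h and 0.461 untreated in this gate. The part of these cells in the interferon values was not tested. Mgp, a matrix protein gene, had no UMI in the CD4 gate of the IgG arm, and was at 0.280 at 48 h and 3.15 untreated.

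**Figure D4:**
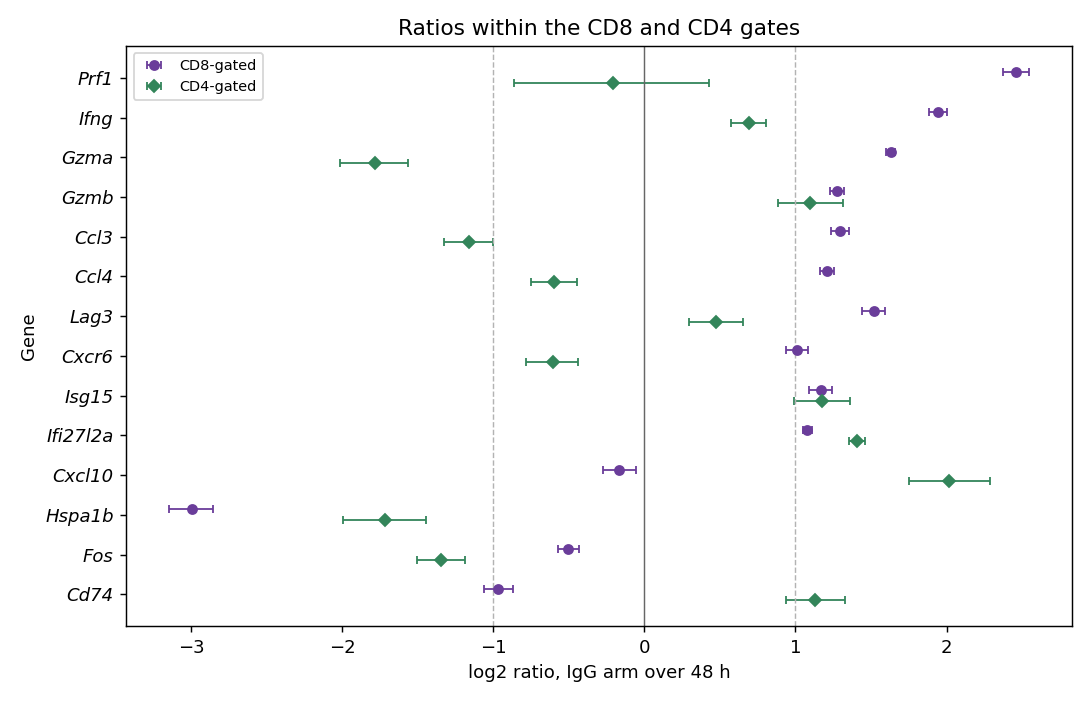
Log2 ratio of the IgG arm to 48 h within CD8-gated cells (circles) and CD4-gated cells (diamonds), with exact 95% intervals that cover counting error only. Dashed lines mark 2-fold. Gzma and Ccl3 lie past 2-fold in opposite directions, while Isg15 and Ifi27l2a are higher in both gates and Hspa1b is lower in both.

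Cells with Foxp3, the defining factor of regulatory T cells, were a larger part of the CD4 gate in the IgG arm than at 48 h. Over all T cells Foxp3 was at 0.222 UMIs per 10000 in the IgG arm, 0.119 at 48 h and 0.372 in untreated tumours, with a ratio to 48 h of 1.86 (1.64 to 2.12). Of CD4-gated cells, 87 of 277 had a Foxp3 UMI in the IgG arm, 70 of 704 at 48 h and 164 of 550 untreated. As a share of all T cells they were 1.05% in the IgG arm, 0.492% at 48 h and 1.67% untreated after thinning, and 3.11% in the IgG arm, 1.77% at 48 h and 6.28% untreated without thinning. Thinned to 1000 UMIs they were 0.143% in the IgG arm, 0.229% at 48 h and 0.345% untreated, on 4, 9 and 9 cells of those libraries, and the 48 h share was then above that of the IgG arm. Of 16 counted regulatory T cell genes of 20, Klrg1 rose over 48 h in all T cells and none fell. For 48 h over untreated, Foxp3, Il10, Areg, Klrg1 and Izumo1r fell and Nrp1 rose. In the CD4 gate Foxp3, Il10, Lrrc32 and Klrg1 rose over 48 h.

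The CD4-gated cells with and without a Foxp3 UMI differed in their genes. With Foxp3, Ifng was at 0.489 in the IgG arm, 1.45 at 48 h and 1.38 untreated, in UMIs per 10000. Without Foxp3 it was at 7.14 in the IgG arm, 3.26 at 48 h and 3.54 untreated, so the higher Ifng of the IgG arm lay in cells without a Foxp3 UMI. Ccl1 in the cells without Foxp3 was at 9.85 in the IgG arm, 22.2 at 48 h and 10.8 untreated, with the 48 h library highest. Ifi27l2a was 2.36-fold above 48 h in both subsets. Ctla4 was at 8.08 in the IgG arm, 7.74 at 48 h and 11.6 untreated with Foxp3. Without Foxp3 it was at 3.05 in the IgG arm, 2.89 at 48 h and 3.36 untreated. Within each subset Ctla4 was thus close between the IgG arm and 48 h. The Foxp3 cells held 858776 UMIs in the IgG arm, 497119 at 48 h and 1659724 untreated.

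Set side by side, the 3 libraries gave several orders of levels. In one, the 48 h library stood apart and the IgG arm lay near untreated, as for Hspa1a, Hspa1b, Tsc22d3 and Fos, which were high at 48 h, and Aldoa and Eno1, which were low. Gzma and Gzmb were also lowest at 48 h, and in the IgG arm their ratio to untreated was 0.753 for Gzma and 0.708 for Gzmb. In another, 48 h was close to untreated and the IgG arm stood apart, as for Ifng, Lag3, Klre1, Ccl4 and Hnrnpa0. In the last, both libraries after doxorubicin passed 2-fold against untreated in the same direction. Klf4, a factor of quiescent T cells, was at 0.833 in the IgG arm, 0.9502 at 48 h and 0.360 untreated. Nrp1, a semaphorin receptor, was at 0.567 in the IgG arm, 0.438 at 48 h and 0.196 untreated. Both were above untreated in both libraries. Hopx, a homeodomain-only protein, was below it in both, at 1.01 in the IgG arm, 0.995 at 48 h and 2.46 untreated.

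The 3 other arms had the same doxorubicin and antibody schedule, with 200 ug anti-PD1 plus 200 ug IgG, 200 ug anti-CTLA4 plus 200 ug IgG, or 200 ug of each blocking antibody. Their T cells, 3023 with anti-PD1, 2575 with anti-CTLA4 and 2974 with both, were chosen by the same rule. They made up 47.6% of cells within the limits with anti-PD1, 74.7% with anti-CTLA4 and 86.2% with both, and 28.9%, 12.3% and 5.77% of cells in those arms had 2 or more Krt18 UMIs. Epithelial markers in their T cells summed to 2.59 with anti-PD1, 2.07 with anti-CTLA4 and 0.433 with both, beside 2.29 at 48 h. Macrophage and monocyte markers summed to 3.73 with anti-PD1, 1.61 with anti-CTLA4 and 0.849 with both. The anti-PD1 library thus carried the most of both, and the part of this RNA in the values below was not tested. Prf1 was at 2.53 UMIs per 10000 in the IgG arm, 0.397 with anti-PD1, 3.92 with anti-CTLA4 and 1.56 with both, against 0.472 at 48 h. The anti-PD1 library was the one arm below the 48 h level. Ifng was at 4.41 in the IgG arm, 1.26 with anti-PD1, 3.76 with anti-CTLA4 and 3.36 with both, against 1.43 at 48 h. Lag3 was at 2.19 in the IgG arm, 1.11 with anti-PD1, 2.21 with anti-CTLA4 and 2.15 with both, against 0.871 at 48 h. The anti-PD1 arm was the lowest of the 4 for all 3 of these genes. Gzma was at 12.6 in the IgG arm, 11.2 with anti-PD1, 14.9 with anti-CTLA4 and 7.42 with both, against 4.71 at 48 h, so all 4 arms lay above 48 h. Hspa1b was at 0.214 in the IgG arm, 0.678 with anti-PD1, 0.895 with anti-CTLA4 and 1.005 with both, against 1.43 at 48 h, so all 4 lay below 48 h. Isg15 was at 2.01 in the IgG arm, 1.17 with anti-PD1, 1.27 with anti-CTLA4 and 0.953 with both, against 0.925 at 48 h and 1.33 untreated. The IgG arm alone was above untreated for Isg15. Ccl1 was at 1.54 in the IgG arm, 1.63 with anti-PD1, 1.37 with anti-CTLA4 and 3.45 with both, all below the 4.64 of 48 h. Hnrnpa0 was at 1.86 in the IgG arm, 4.33 with anti-PD1, 4.22 with anti-CTLA4 and 4.08 with both, against 3.84 at 48 h, so it was low in the IgG library alone. Each arm is 1 library, so library and treatment cannot be told apart.

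**Figure D5:**
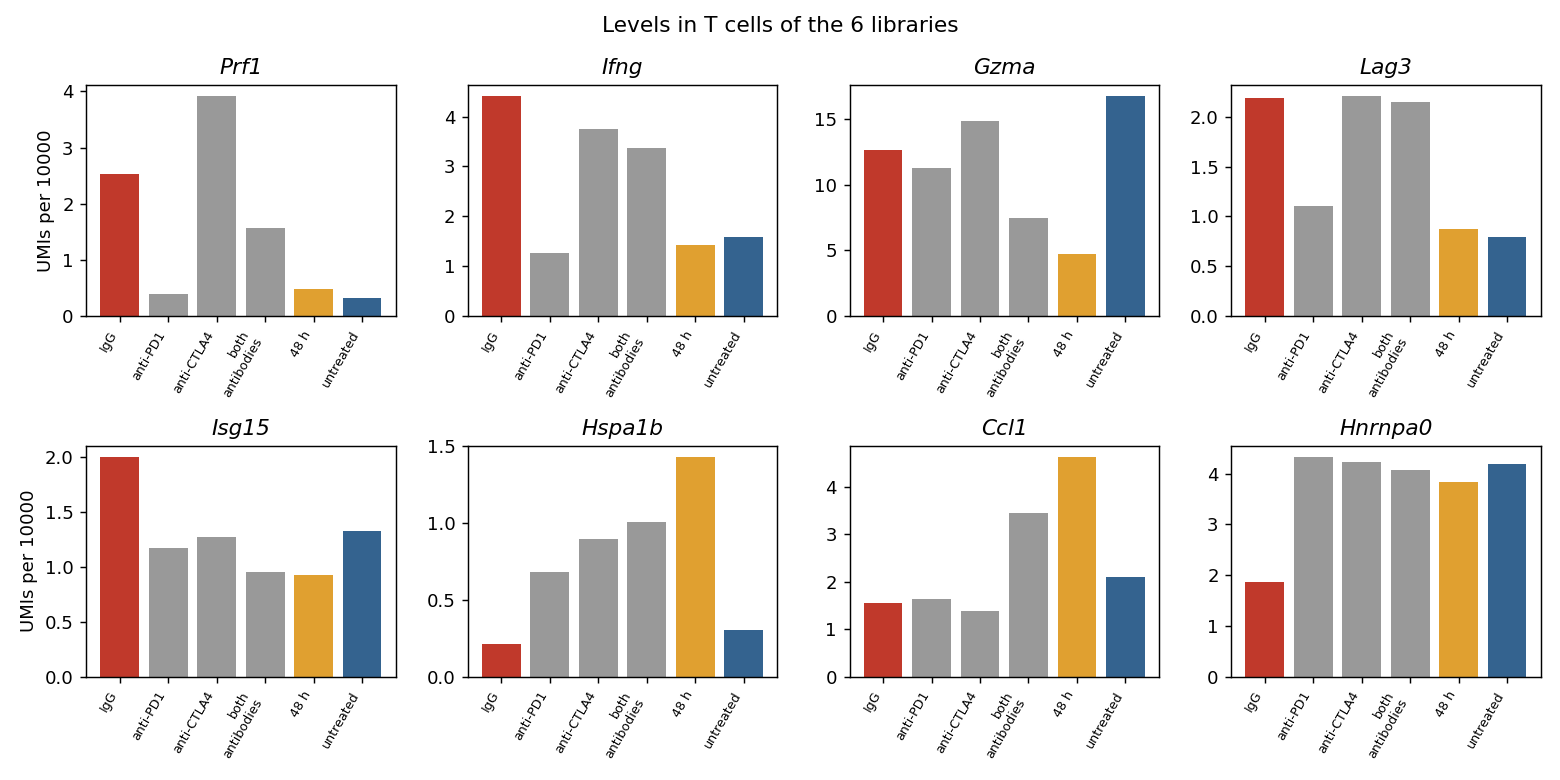
Levels in UMIs per 10000 of 8 genes in the T cells of the 6 libraries, 1 bar a library, with the IgG arm first, the 3 blockade arms in grey, then 48 h and untreated. Gzma is above 48 h and Hspa1b and Ccl1 below 48 h in all 4 later arms, while Prf1 and Ifng are low in the anti-PD1 arm and Hnrnpa0 is low in the IgG arm only.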

How the data were processed

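Single cells of 3 T cell libraries were compared, 1 a group, with 3 further libraries set beside them. The authors deposited UMI counts per gene and cell, made with Cell Ranger 6.0.0 per the file headers, on GRCm38 (mm10) per the labels. Rows of the count matrices were named by the gene order of the series' merged count table. The correlation of gene totals between the table and the 6 matrices was at least 0.954 in the same row and at most 0.354 with rows shifted by up to 50.

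From the counts, UMIs were summed over the T cells of a library and divided by their total (Python 3.11.15, numpy 2.4.6, scipy 1.17.1, pandas 2.3.3). Ratios have exact conditional 95% intervals, levels exact Poisson ones and shares exact Clopper-Pearson ones. No test was run, since each group is 1 library. The ratio step was tested on simulated counts. Counts cover 3' ends, so levels are not compared between genes. No doublet caller was run. T cells with both Cd4 and Cd8 UMIs had a median of 13305 UMIs in the IgG arm, 8433.5 at 48 h and 16190 untreated, above other T cells, and leaving them out is one of the alternatives. Barcode sequences were not analysed here, so barcodes that libraries share were not counted.

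Members, gene lists and alternatives were chosen with earlier results of these data known. Genes named in the text are the 15 largest rises and falls of the IgG arm over 48 h at a mean level of at least 0.5, the 8 largest in each gate and the 10 largest of 48 h over untreated, without receptor segments. To these come the 4 largest ratios of each list, and any member of the inhibitory, cytotoxic, p53 and regulatory T cell lists. Members named only as those of a list past 2-fold were named after their values were seen.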

Additional observations from a re-analysis of the deposited data

Results flagged for a closer look

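Of 2297 genes compared in both gates, 8 differed by at least 1.5-fold between the IgG arm and 48 h in opposite directions in the CD8 gate and the CD4 gate. The difference between the gates was not tested, since each rests on 1 library a side. Only Gzma and Ccl3 passed 2-fold in both gates. The difference of the log2 ratios, CD8 gate minus CD4 gate, was 3.42 for Gzma, which was higher than at 48 h among CD8-gated cells and lower among CD4-gated cells. It was 2.46 for Ccl3 and 1.81 for its relative Ccl4.

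The CD4 value of Ccl4 was short of 2-fold, at 1.91 UMIs per 10000 in the IgG arm and 2.88 at 48 h. Cxcr6, the receptor for Cxcl16, had a difference of 1.62, with levels in the CD8 gate of 2.02 in the IgG arm and 1.002 at 48 h, and in the CD4 gate of 1.53 in the IgG arm and 2.33 at 48 h. The difference was 1.43 for Ece1, a metalloprotease gene, and 1.40 for AA467197, both higher than at 48 h in the CD8 gate and lower in the CD4 gate.

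It was -1.29 for Uap1, an enzyme of UDP-GlcNAc synthesis, and -2.10 for Cd74, the MHC class II invariant chain. Cd74 was at 0.526 in the IgG arm and 1.03 at 48 h in the CD8 gate, and at 1.97 in the IgG arm and 0.897 at 48 h in the CD4 gate. In non-T cells Cd74 was at 31.4 in the IgG arm and 11.8 at 48 h, and the part of RNA from such cells in its T cell values was not tested.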

How the results depend on the processing

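No paired analysis was possible because each group is 1 library. None of the 46 named counted genes past 2-fold between the IgG arm and 48 h changed sign under the 15 alternatives. Of the 46, 31 stayed past 2-fold under every alternative that gave them a ratio. Among those that did not were Slc16a3 (8 of 15), Ccl4, Tnfsf4, Gm42418 and Scd2 (12), Ccl1, Apoe, Igkc and Hnrnpa0 (13), and Klre1, Isg15, Fcer1g and Tyrobp (14). Of the 31, Krt18 had a ratio in 13 alternatives only, and Krt8, Col1a1, Col3a1, S100a8 and S100a9 in 14 each. A ratio is missing where the IgG arm, 48 h or both had no UMI of the gene. Hnrnpa0 had a log2 ratio of -0.96 when scaled to the median ratio, and Isg15 0.98 without cells holding RNA of other cell types. Medians of 9 of 34 lists changed sign: chemokine ligands, costimulatory, DNA repair, dendritic cell, exhaustion, naive, S phase, T cell receptor and tissue residency.

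Counts moved more. Keeping cells with Krt18 or Lyz2 gave 52 higher and 158 lower for the IgG arm over 48 h, 205 past 2-fold for 48 h over untreated (120 as reported), 164 in the CD8 gate (69) and 462 in the CD4 gate (273). Leaving out cells with RNA of other cell types, chosen after seeing the data, gave 48 higher. Thinning each cell gave 704 in the CD4 gate, and leaving mitochondrial and ribosomal genes out of the total gave 71 lower. A mean level of at least 0.5 left 12 higher and 7 lower, 19 for 48 h over untreated, 28 for the IgG arm over untreated (106 as reported), 23 in the CD8 gate and 58 in the CD4 gate. With no filter on the level these were 978, 1674, 2865, 2424, 2529 and 1956. A fold of 1.5 gave 117 higher and 203 lower, 286 in the CD8 gate and 1123 in the CD4 gate, and a fold of 3 gave 2, 19, 24 and 79. Filters and folds act by which genes they admit, and the cause of the other changes was not tested. The Foxp3 share of the IgG arm minus that of 48 h was 0.559 points, 1.33 unthinned and -0.0857 thinned to 1000 UMIs, where it rests on 4 cells in the IgG arm and 9 at 48 h. The Foxp3 cells held 858776 UMIs in all in the IgG arm and 497119 at 48 h. Their median cell had 7867 UMIs in the IgG arm and 5253 at 48 h. In CD4-gated cells without Foxp3 it had 7533.5 in the IgG arm and 4406.5 at 48 h.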

Other observations

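Lists not described above held few genes past 2-fold between the IgG arm and 48 h. The 18 T cell receptor and signalling genes had a median log2 ratio of -0.01, the 17 counted naive and central memory genes -0.08 and the 17 counted tissue residency and homing genes 0.05, with none past 2-fold. The 10 counted DNA repair genes had a median of -0.16 and the 14 counted TGF-beta response genes -0.14, also with none. Among 23 counted apoptosis and survival genes (median -0.18) only Bbc3 fell. Of 18 counted STAT5 and interleukin-2 response genes (median -0.16) Gzmb rose and Lta fell. Of 12 counted cholesterol synthesis genes (median 0.18) the desaturase gene Scd2 fell. Of 4 counted type 17 and gamma delta genes Tcrg-C4 fell, and none of 5 counted type 2 genes passed 2-fold.

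A few receptor segments took large shares in the IgG arm and in 2 of the other antibody arms. Trav16n made up 40.5% of alpha variable segment UMIs in the IgG arm, 17.99% at 48 h and 9.001% untreated, and reads may be shared with its near-identical copies. Trbv19 made up 34.9% of beta variable segment UMIs in the IgG arm and 12.9% untreated. At 48 h it was not among the 3 leading beta segments, the last of which, Trbv12-2, took 9.98%. With anti-CTLA4 the leading alpha segment, Trav6-7-dv9, took 38.4%, and with both antibodies the leading beta segment, Trbv2, took 30.3%. With anti-PD1 the leading alpha segment took 13.2% and the leading beta segment 14.7%. Cells with a Trbv19 UMI were 5.43% of T cells in the IgG arm, 0.938% at 48 h and 1.68% untreated. Cells with Trav16 or Trav16n were 8.93% in the IgG arm, 3.37% at 48 h and 5.05% untreated, and both chains were seen in 7 cells in the IgG arm, 2 at 48 h and 1 untreated. These segments were chosen after their values were seen. With all such cells left out, 25 genes were higher in the IgG arm than at 48 h and 46 lower, and the log2 ratio was 2.45 for Prf1, and 0.92 for Klre1 and 0.88 for Ccl4, both then below 2-fold.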
